A study of Arabidopsis thaliana with 36 samples.

Results

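In leaves of Arabidopsis thaliana, 157 genes rose at least 3-fold within 15 min of an increase in light in both ecotypes studied and were back under 2-fold by 120 min. They were chosen from the 37336 genes of the table by their own readings. The mean RPKM (reads scaled to the length of the transcript and to the mapped reads of the library) of 3 libraries was taken for each ecotype and time, 1 RPKM was added, and the sum was divided by the same sum at 0 min. A member had a ratio of at least 3 at 15 min and below 2 at 120 min, in Col-0 and in WS, and at least 1 of its 36 readings was above 7 RPKM, a floor that 13817 genes passed. Of the 329 genes above the floor with a ratio of at least 3 at 15 min in both ecotypes, 172 were not below 2 at 120 min in 1 or both ecotypes and are not members. They are called the genes still raised at 120 min here. The rise at 15 min and the return at 120 min are therefore given as descriptions. Tests were made only between libraries taken at 30, 60 and 240 min. These tests are still not independent of the rule, because the libraries come from the same plants. The times 30 and 60 min lie between the rise and the return, and the return lies between 60 and 240 min. Falls of the members in these steps are thus favoured by the choice.

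The study followed leaves of the ecotypes Columbia-0 (Col-0, written COL in the labels) and Wassilewskija (WS), both without a mutation. Plants were grown hydroponically with a 12 h photoperiod at a photon flux density (PFD) of 120 micromoles of photons per square metre per second. They were then moved to a PFD of 500 at ambient CO2, and leaves were taken at 0 min, in growth light, and after 15, 30, 60, 120 and 240 min. There were 3 plants of each ecotype and 1 library for each plant and time, which gave 36 libraries in 12 groups of 3. The same plants were sampled at each time, and no library was taken in growth light after 0 min, so that light, time of day, removal of earlier leaves and the move into the treatment cannot be told apart.

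Many plant genes of this kind are known as early response genes. A touch, a wound, cold, a molecule of a pathogen or a sudden change of light raises cytosolic calcium and reactive oxygen, and protein kinases and calcium-dependent factors then switch on genes whose transcripts also turn over quickly. Such genes often encode calcium sensors, receptor kinases, immune receptors, ubiquitin ligases and transcription factors of the ERF, WRKY, NAC and zinc finger families. By annotation, 83 of the 157 members fell into groups of this sort (calcium signalling, receptors and kinases, immune receptors, ubiquitin ligases and transcription or RNA-binding factors). A further 18 had roles in the cell wall, in hormone and lipid metabolism or in secretion, and 56 were of other or unknown function. Roles were assigned to the members only, so the share of such groups among all genes above the floor is not known here. The counts are descriptions and do not show that these roles are more frequent in the members.

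Of 8 short sequences searched in the promoters, CGCGTT had the largest ratio of its share in members to its share in all genes. The letters CGCGTT, the core of the rapid stress response element that calmodulin-binding transcription activators (CAMTA factors) recognise, occurred on either strand of the 250 bases before the gene start in 30 of 157 members (19.1%), in 12 of the 172 genes still raised at 120 min (6.98%), and in 395 of 13738 promoters of all genes above the floor (2.88%). Of the 36 matches in members, 30 (83.3%) began in the 110 bases nearest to the gene start, against 56.5% of 446 matches in all promoters. The stretches below are those 110 bases in 6 members described later, with the letters CGCGTT, or AACGCG where the match is on the other strand, in capitals. They were read from the RefSeq copy of the genome (TAIR10.1), run 5′ to 3′ in the direction of the gene and end at the base before its annotated start. They are TCH2, an EF-hand calcium sensor (chr5:14999620-14999729, minus strand), CBF2, a cold response factor (chr4:13016236-13016345, minus strand), the ankyrin repeat gene AT2G24600 (chr2:10454594-10454703, minus strand), the TIR-NBS gene AT1G66090 (chr1:24601923-24602032, plus strand), the C2-domain gene AT4G34150 (chr4:16354747-16354856, plus strand) and the NAC factor NAC090 (chr5:7410103-7410212, minus strand).
TCH2: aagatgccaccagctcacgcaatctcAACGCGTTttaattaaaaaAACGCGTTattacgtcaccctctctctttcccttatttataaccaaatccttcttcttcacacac
CBF2: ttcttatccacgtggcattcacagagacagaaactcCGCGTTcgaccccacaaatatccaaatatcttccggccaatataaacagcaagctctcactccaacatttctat
AT2G24600: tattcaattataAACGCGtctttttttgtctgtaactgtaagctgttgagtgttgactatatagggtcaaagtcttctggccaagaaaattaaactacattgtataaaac
AT1G66090: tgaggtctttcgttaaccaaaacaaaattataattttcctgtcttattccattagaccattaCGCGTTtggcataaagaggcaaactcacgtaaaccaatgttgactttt
AT4G34150: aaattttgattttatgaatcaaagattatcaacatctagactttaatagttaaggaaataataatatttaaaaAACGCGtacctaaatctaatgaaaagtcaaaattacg
NAC090: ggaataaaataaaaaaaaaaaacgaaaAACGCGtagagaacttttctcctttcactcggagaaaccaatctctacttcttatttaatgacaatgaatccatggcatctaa

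In TCH2 the letters lie in a pair of AACGCGTT stretches, each read as a match on both strands, so that 4 matches were counted. CBF2 and AT2G24600 had 1 match each. By role, the letters were found in 6 of 18 immune receptors and their partners, 3 of 17 genes of calcium signalling, 3 of 5 cell wall genes, 4 of 25 transcription and RNA-binding factors and 11 of 56 genes of other or unknown function. They were in none of the 14 genes of receptors, kinases and G proteins and none of the 7 of hormone and lipid enzymes. A match is a description of these letters and does not show that a factor binds there.

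For the other motifs searched, each on both strands, the share in members was closer to that in all promoters as a ratio. TTGAC, the W-box core that WRKY factors bind, was in 61.8% of member promoters and in 44.5% of all, and it was in 58.1% of the genes still raised at 120 min. ACGTG, the core of the abscisic acid response element, was in 33.1% of members and 24.2% of all promoters, and CACGTG, the G-box that contains it, in 12.1% and 7.94%. GAANNTTC, the heat shock element, was in 15.3% and 9.22%, and AAATATCT, the evening element of clock-controlled genes, in 7.01% and 5.25%. CCGAC, the DRE core that CBF factors bind, was in 12.7% and 13.5%, and GCCGCC, the GCC-box of ERF factors, in 1.91% and 2.03%. The median GC content of the windows was 31.6% in members and in all promoters.

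**Figure D1:**
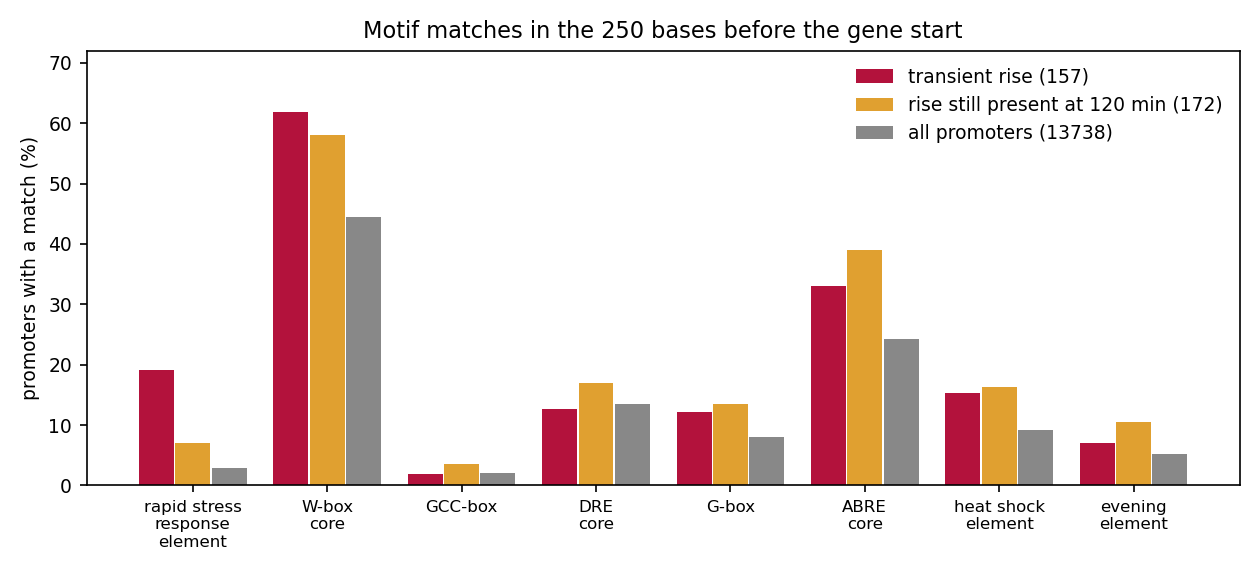
Share of promoters (%, y axis) with at least 1 match of each motif (x axis) in the 250 bases before the gene start, for the 157 members, the 172 genes that rose as much at 15 min but were not below 2-fold at 120 min, and all 13738 promoters read. The rapid stress response element stands at 19.1% in the members, 6.98% in the genes still raised and 2.88% in all promoters, and the DRE core and GCC-box stand near the level of all promoters.

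The members were also short of introns. Of 156 protein-coding members 65 (41.7%) had a single exon in the longest transcript, against 12.4% of 13407 protein-coding genes above the floor, and the median number of exons was 2 against 5. The genes still raised at 120 min had the same feature, with 41.1% of 168 in a single exon. The median summed exon length was 1656 bases in the members and 1752 bases in all. The 157 genes lie on all 5 chromosomes, with 50, 21, 27, 25 and 34 on chromosomes 1 to 5, and only AT5G41740 and AT5G41750, both TIR-NBS-LRR immune receptor genes, are next to each other. Of the members, 24 overlap a gene on the other strand and 7 overlap a gene on their own strand. The library kit kept the strand, but the strand setting of the counting is not given in the sources used here, so reads of such partners may not be told apart. They include RRTF1, the redox responsive transcription factor.

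The libraries held between 7.34 and 41.7 M (mega) reads in genes, with a median of 28.6 M, and 1 read in a 1 kb transcript was worth 0.132 RPKM in the shallowest, WS plant 1 at 0 min. Over all genes, 27 of the 36 libraries lay nearest to other libraries of their own ecotype and time. The 9 others included all 3 labelled Col-0 60 min, which were nearest to Col-0 at 30 min, and Col-0 15 min plant 3, which was nearest to Col-0 at 0 min. The main counts below were also taken without 4 libraries picked after the data were seen, Col-0 60 min and 120 min plant 1, WS 120 min plant 3 and the shallowest library. The counts of members called were higher without them in all 7 comparisons tested. Of the 4, only Col-0 60 min plant 1 belongs to a group that was compared. The others enter only through the spread shared by all groups, so the higher counts do not show that the calls are firmer. The summed level of 8 mesophyll genes was between 11373 and 65179 RPKM, whereas 5 of 6 root genes (EXPA7, COBL9, LRX1, PRP3 and NIP1-1) were below 1 RPKM in every group and the root sum was between 0 and 4.29 RPKM. In bulk leaf samples, fewer cells of a type and less RNA per cell cannot be told apart. The summed level of 6 guard cell genes was 26.5 to 32.1 RPKM in Col-0 at 0 min and 12.5 to 24.2 RPKM at 15 and 30 min, in the libraries where the members were high, and that of 5 epidermis genes was 184 to 194 RPKM at 15 min and 215 to 315 at 0 min. In WS the epidermis sum at 15 min, 172 to 213 RPKM, lay within its range at 0 min, 139 to 238 RPKM. In WS the guard cell sum was 21.7 to 38.6 RPKM at 0 min and 14.6 to 23.5 at 15 and 30 min. Their part in the values below was not tested.

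The median member stood 5.69-fold above its 0 min level in Col-0 at 15 min and 5.14-fold in WS, on the scale of the ratio with 1 RPKM added. At 30 min the median ratio had dropped to 3.48 in Col-0, while in WS it was 5.07. It was 2.24 and 1.73 at 60 min, 1.11 and 1.12 at 120 min, and 1.26 and 1.08 at 240 min. The median over all 13817 genes stayed between 0.997 and 1.08 at every time. The 30 min libraries entered the rule only through the floor. At 30 min, 136 members in Col-0 and 152 in WS were still at a ratio of 2 or more. Of all genes above the floor, 9.86% and 9.31% were. At 60 min the counts were 90 and 59, with 12.5% and 14.1% of all genes, and at 240 min they were 26 and 19, with 12.5% and 11% of all genes. These ratios share the 0 min libraries with the rule and are given with no test.

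The highest mean was reached at 15 min by 128 members (Col-0) and 87 members (WS), at 30 min by 26 and 67, and at 60 min by 3 and 3. In WS the median member still had 93.7% of its 15 min rise at 30 min, with quartiles of 68.2% and 130%, and in Col-0 57.4%, with quartiles of 31.1% and 84.5%. These shares in WS lean on plant 1. The median log2(RPKM + 1) of the members was 5.11 in plant 1 of WS at 30 min and 3.20 and 3.22 in the other 2 plants.

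The size of the rise differed strongly between plants of a group. In Col-0 at 15 min the median level of the members on the log2(RPKM + 1) scale was 4.62, 5.39 and 4.25 in plants 1 to 3, after 2.08, 1.94 and 2.24 at 0 min. Plant 2 held the highest of the 3 readings for 133 of 157 members. In WS at 15 min the medians were 4.77, 3.95 and 3.73, after 1.77, 1.74 and 1.82 at 0 min, and plant 1 was highest for 137 members. At 30 min WS plant 1 was highest for 152 members, whereas in Col-0 plant 3 was highest for 103. At 60 min Col-0 plant 2 was highest for 123 members, with medians of 2.46, 3.98 and 3.12. At 0 min no plant of WS held more than 56 of the highest readings, but in Col-0 plants 1 to 3 held 24, 44 and 89. At 15 and 30 min, and in Col-0 at 60 min, most members thus shared the plant in which they were highest. Such counts were not made over all genes, so they are not read as a feature of the members. No 15 min library of either ecotype had a median within the range of its 0 min libraries. The rule used these same libraries and favours this separation.

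**Figure D2:**
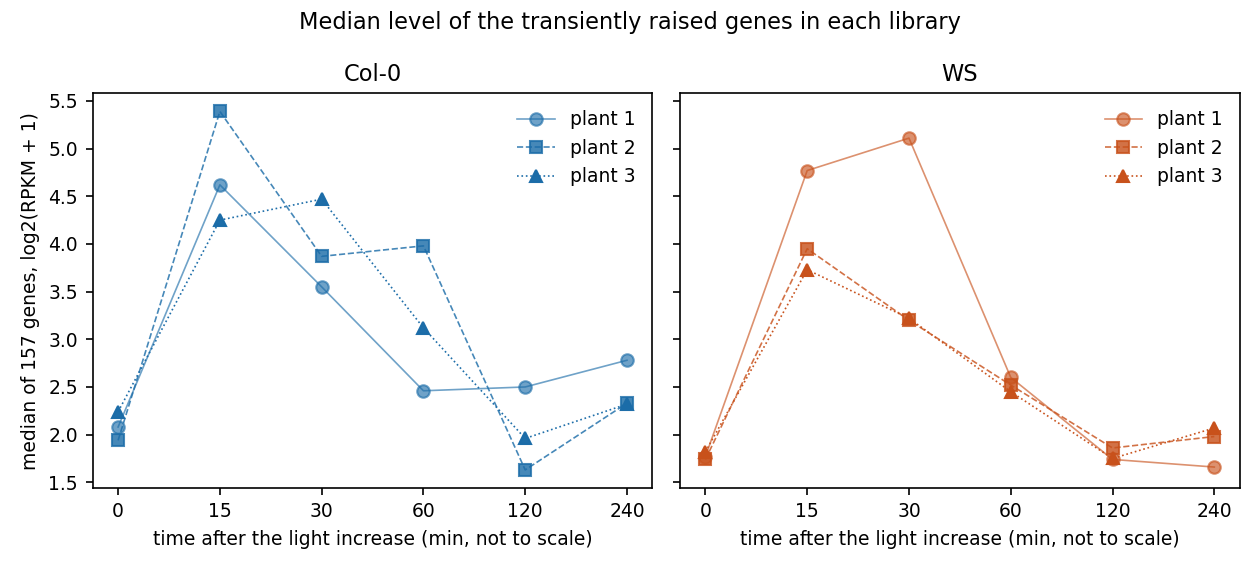
Median level of the 157 members in each library, as log2(RPKM + 1) (y axis), against minutes after the light increase (x axis, not to scale), for Col-0 and WS, with 1 line for each plant as the labels number them. Plant 2 of Col-0 stands highest at 15 min (5.39), plant 1 of WS stands apart at 30 min (5.11 against 3.20 and 3.22), and all 3 WS plants lie together at 60 min.

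Calcium signalling was the role of 17 members. SRC2, a C2-domain protein of membranes, read 46.0, 54.3 and 83.7 RPKM in the 3 Col-0 plants at 0 min and 601, 574 and 390 RPKM at 15 min. In WS it read 21.3, 28.5 and 29.4 RPKM and then 524, 304 and 279 RPKM. Every 15 min reading of both ecotypes stood above every 0 min reading, and at 240 min SRC2 was at 26.9 to 32.9 RPKM in Col-0 and 14.0 to 29.1 RPKM in WS. AT4G34150, whose promoter stretch is printed above, encodes another C2-domain protein and went from 52.5 to 78.9 RPKM at 0 min to 281 to 474 RPKM at 15 min in Col-0, and from 23.7 to 27.4 RPKM to 143 to 255 RPKM in WS. CIPK9, a kinase that works with calcineurin B-like calcium sensors, read 37.2, 49.99 and 55.3 RPKM in Col-0 at 0 min and 159, 142 and 168 RPKM at 15 min. The other members of this role include the EF-hand proteins CML23 and CML37, the calcium-dependent kinases CPK28 and CPK32, the calcium sensor CBL1, the calcium pump ACA1 and CBP60G, a calmodulin-binding factor of salicylic acid synthesis.

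Receptors, kinases and G proteins made up 14 members. PTI1-4, a cytosolic kinase, read 21.4, 19.6 and 17.38 RPKM in Col-0 at 0 min and 90.5, 126 and 100.3 RPKM at 15 min. The WS plants read 24.8, 20.0 and 22.8 RPKM and then 160, 102 and 91.7 RPKM. Its readings at 240 min, between 7.36 and 10.1 RPKM over both ecotypes, lay below all 6 readings at 0 min. CRK10, a cysteine-rich receptor kinase, had a 15 min ratio of 10.1 in Col-0 and 6.05 in WS, and MPK3, a mitogen-activated protein kinase of immune and stress signalling, had ratios of 3.21 and 3.14. MPK3 was uneven at 120 min in Col-0, with 93.9, 13.4 and 33.8 RPKM. Others of this role were SOBIR1, the kinase partner of receptor-like proteins, LYK5, a chitin receptor, the wall-associated kinases WAKL2 and WAKL6, and XLG2, an extra-large G protein.

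Immune receptors and their partners were 18 members. HSPRO2 read 10.99, 19.7 and 14.7 RPKM at 0 min in Col-0 and 69.9, 252 and 65.3 RPKM at 15 min. In WS the readings were 12.6, 11.6 and 14.1 RPKM and then 222, 86.7 and 97.7 RPKM. At 60 min all 3 Col-0 plants (5.57, 16.5 and 5.92 RPKM) were within or below the range at 0 min. NHL3, a membrane protein related to NDR1, had a 15 min ratio of 7.12 in Col-0 and 9.35 in WS and a 240 min ratio of 2.21 and 2.57. ZAR1, an NLR receptor that forms a membrane channel when activated, lay just inside the rule in WS, with a 15 min ratio of 3.01, and had 4.55 in Col-0. The role also includes NDR1 itself, and NSL1 and CAD1 (AT1G29690), a pair of membrane attack complex proteins that limit cell death.

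The transcription and RNA-binding factors, 25 members, had the highest median 15 min ratio in WS after the hormone and lipid enzymes, 6.66, and a median of 7.40 in Col-0. SZF1, a zinc finger protein of the tandem CCCH type that can promote mRNA decay, read 7.30, 7.58 and 12.3 RPKM in Col-0 at 0 min and 79.3, 338 and 71.0 RPKM at 15 min. In WS it read 3.28, 3.42 and 4.77 RPKM, then 201, 54.4 and 67.4 RPKM at 15 min and 256, 35.7 and 38.9 RPKM at 30 min. Plant 2 of Col-0 and plant 1 of WS stood apart from the other plants, as they did in the median of all members. ORA47, an ERF-type regulator of jasmonate synthesis, had the highest ratio of all members, 45.9 in Col-0 and 61.3 in WS. It read 0.36 to 0.43 RPKM in Col-0 at 0 min, and its 15 min readings were 37.4, 136 and 16.3 RPKM, with 290, 36.3 and 10.6 RPKM in WS. AT3G56880, which carries a VQ motif, had ratios of 12.6 and 13.9. The role also holds RRTF1, ERF5, ERF6, ERF104, DDF1, WRKY15, WRKY22, ATAF1, NAC062 and HSF A4A.

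Of 9 ubiquitin ligases, PUB19, a U-box protein, read 4.53, 1.85 and 6.66 RPKM in Col-0 at 0 min, 30.4, 83.1 and 34.2 RPKM at 15 min and 77.1, 30.4 and 108 RPKM at 30 min. Readings in WS were 180, 245 and 16.0 RPKM at 15 min, so that plant 3 was far under the other 2. XBAT34 had a 15 min ratio of 7.19 in Col-0 and 7.27 in WS, and CMPG1, known from elicitor responses, 10.3 and 9.50. PUB22 and PUB23, which act against immune signalling, were members too. Of 6 genes of secretion and membrane traffic, TET8, a tetraspanin of extracellular vesicles, read 23.0, 33.2 and 28.4 RPKM in Col-0 at 0 min and 188, 421 and 216 RPKM at 15 min, and 225.7, 104 and 117 RPKM in WS at 15 min. SYP122, a syntaxin of the plasma membrane, had ratios of 11.6 and 13.1, and EXO70B1, an exocyst subunit, 4.02 and 3.27. SYP121 and EXO70B2 were also members.

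Of 7 hormone and lipid enzymes, ACS6, which makes the precursor of ethylene, read 6.38, 9.43 and 7.62 RPKM in Col-0 at 0 min and 33.3, 155 and 31.4 RPKM at 15 min. GPAT3, an acyltransferase, read 17.8, 14.9 and 8.08 RPKM at 0 min, 28.3, 139 and 35.1 RPKM at 15 min and 1.07 to 2.29 RPKM at 240 min, and its ratio to 0 min in Col-0 was 0.265 at 60 min and 0.175 at 240 min. AtIPCS1, a sphingolipid enzyme, had 15 min ratios of 10.1 and 8.52. NCED3, which limits abscisic acid synthesis, and CYP707A3, which breaks abscisic acid down, were both members. The 5 cell wall genes had the lowest median ratio in Col-0 at 15 min, 3.41, and the highest of any role in WS at 30 and 60 min, 6.76 and 3.71. Among them, AT3G10720, annotated in the pectin methylesterase inhibitor superfamily, read 3.14, 7.35 and 7.23 RPKM in WS at 0 min, 32.9, 46.0 and 44.6 RPKM at 15 min and 83.4, 48.4 and 86.9 RPKM at 30 min. AGP20, an arabinogalactan protein, lay just inside the rule in Col-0 with 3.03, and ATPMEPCRB had a 15 min ratio of 6.53 in Col-0 and 7.57 in WS.

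Among the 56 members of other or unknown function, ERD15, a small protein first found in dehydration, read 75.4, 147 and 90.6 RPKM in Col-0 at 0 min, 591, 697 and 439.7 RPKM at 15 min and 519, 557 and 1186 RPKM at 30 min. AT5G19240, a GPI-anchored glycoprotein, read 134, 59.1 and 131 RPKM at 0 min and 571, 541 and 518 RPKM at 15 min in Col-0, and 23.0, 39.3 and 29.2 RPKM and then 445, 345 and 249 RPKM in WS. AT5G08760, of unknown function, had 15 min ratios of 5.72 and 9.14. AT2G09225, the 1 member that does not code for a protein, lies antisense to the calmodulin gene TCH1.

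**Figure D3:**
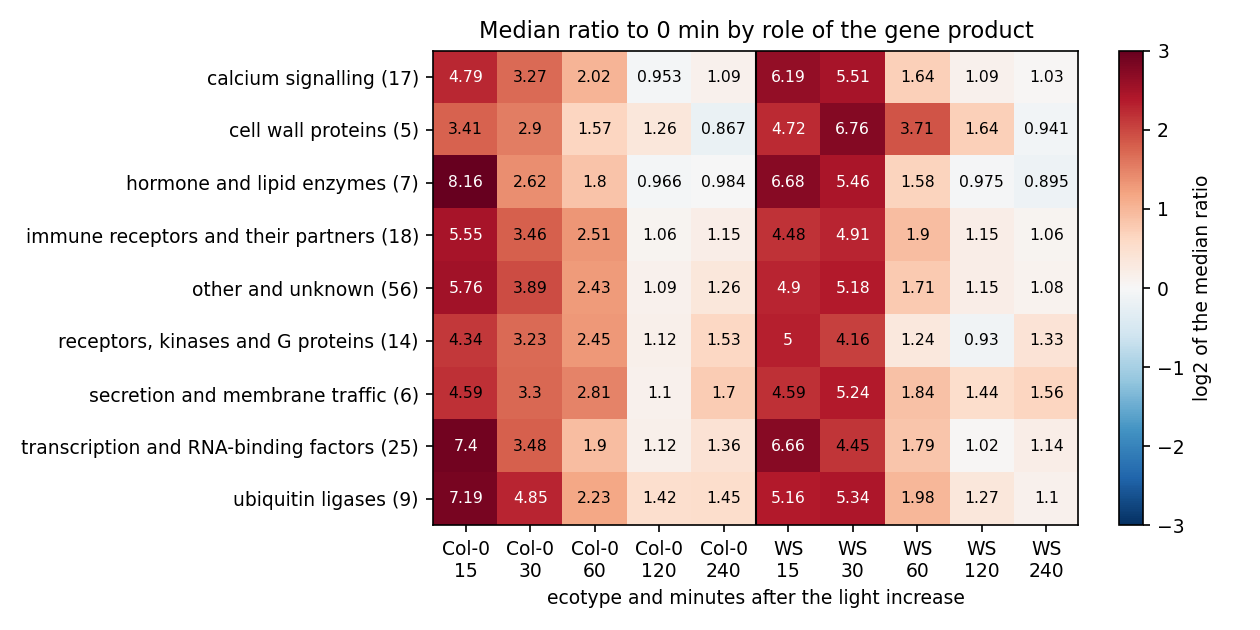
Median ratio to 0 min (1 RPKM added, printed in each cell and coloured on a log2 scale) for each role of the gene product, with the number of members in brackets (rows), against ecotype and minutes after the light increase (columns). Every role is raised at 15 min, as the rule requires, and the cell wall genes stand out in WS at 30 and 60 min with 6.76 and 3.71.

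Members differed in how fast they left their 15 min level. CBF2 and CBF1, AP2 factors that switch on cold tolerance genes, had the lowest ratios of 30 min to 15 min. CBF2 read 10.4, 64.2 and 8.49 RPKM in Col-0 at 15 min and 1.36, 3.18 and 1.54 RPKM at 30 min. WS plants stood at 38.9, 21.4 and 7.62 RPKM and then 6.71, 1.77 and 0.36 RPKM. No 30 min reading reached a 15 min reading of its ecotype, and the log2 ratio of means was -3.25 in Col-0 and -2.58 in WS. CBF1 behaved alike at lower levels, with log2 ratios of -2.69 and -2.03, but the CBF genes are near-identical copies and reads may be shared between them. AT1G50750, a mobile domain protein, followed with -1.60 and -1.76, from readings of at most 4.87 RPKM in Col-0.

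SPX1, a nuclear sensor of phosphate status, was at the other end. It read 7.21, 8.89 and 21.2 RPKM in Col-0 at 0 min, 198, 20.6 and 31.5 RPKM at 15 min, 330, 221 and 442 RPKM at 30 min and 135, 438 and 50.1 RPKM at 60 min. Plant 1 carried most of its 15 min mean, and plants 2 and 3 were close to the highest reading at 0 min. In WS it read 18.1 to 22.6 RPKM at 0 min, 96.8 to 151 RPKM at 15 min and 153, 377 and 724 RPKM at 60 min, the time of its highest mean, and 18.03 to 26.2 RPKM at 120 min. ACR7, an ACT-domain protein, and RAS1, named for its response to abscisic acid and salt, also stood higher at 30 min, ACR7 with log2 ratios of 1.01 (Col-0) and 1.33 (WS) and RAS1 with 0.68 and 1.44. The members with and without CGCGTT had median log2 ratios of 30 min to 15 min of -0.69 and -0.64 for Col-0 and -0.27 and -0.01 for WS, and their quartiles overlapped.

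**Figure D4:**
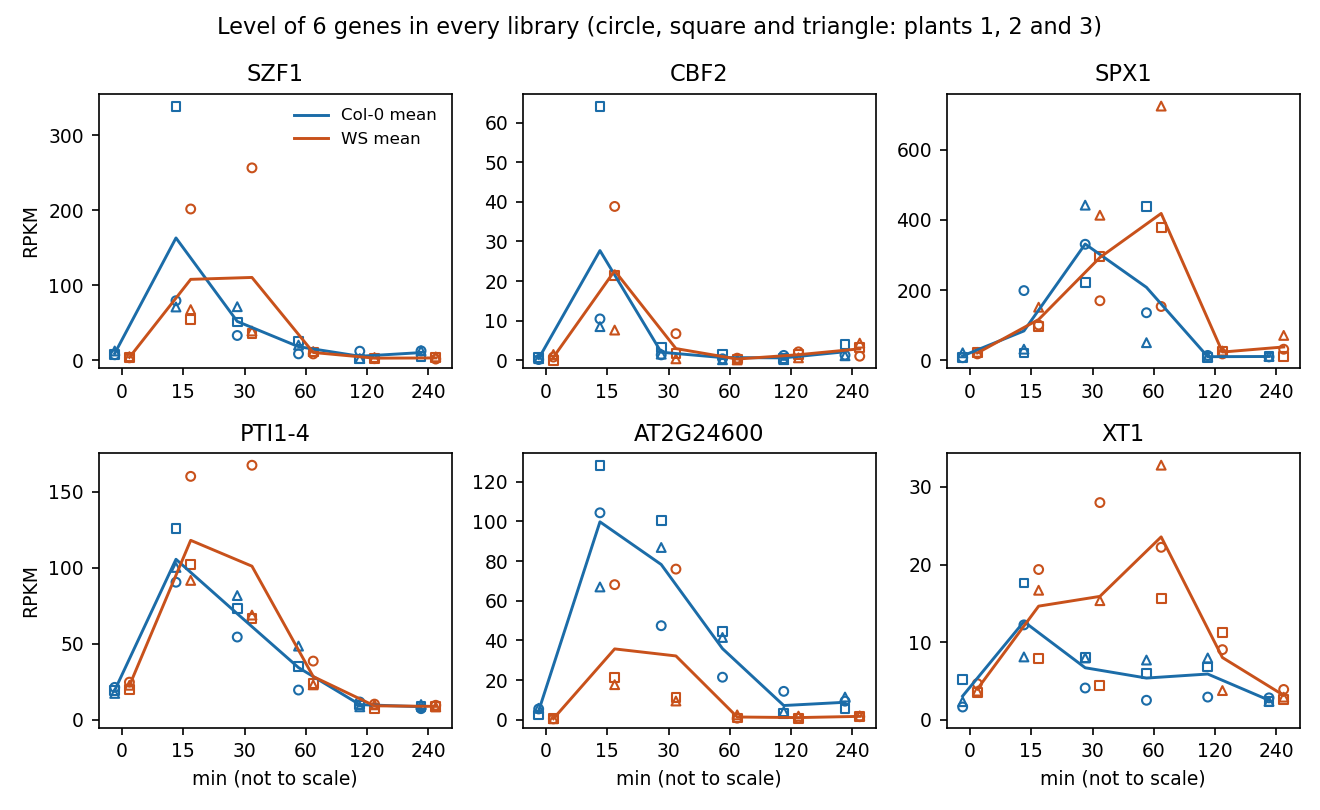
Level in RPKM (y axes) of SZF1, CBF2, SPX1, PTI1-4, AT2G24600 and XT1 in every library against minutes after the light increase (x axes, not to scale), with lines through the means of 3 plants. CBF2 is near its 0 min level by 30 min, SPX1 is highest at 30 min in Col-0 and 60 min in WS, and at 60 min AT2G24600 lies lower in WS than in Col-0 while XT1 lies higher.

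The first test asked whether the members fell from 30 to 60 min, using libraries that entered the rule only through the floor of 7 RPKM. The rule asked for a rise before these times and a return after them, in the same plants of both ecotypes. A fall somewhere in between is therefore built into the members, and a larger share of falls than in all genes follows in part from the choice. The test can show only whether the fall lay in this step and for which members it passed the threshold. Differences are in log2(RPKM + 1), with adjusted p from limma over all 13817 genes. In WS 51 of the 157 members fell and none rose, where 1.93% of all genes tested fell, and the median difference of the members was -1.35 against 0 for all genes. Of all genes, 678 passed in either direction, and 267 of those fell while the rest rose. Of the 14 receptors, kinases and G proteins 10 fell, of 17 calcium genes 7, of 25 transcription and RNA-binding factors 8, of 18 immune receptors and partners 6, of 7 hormone and lipid enzymes 3 and of 5 cell wall genes none. The count depended on single plants. It was 3 without plant 1, 1 without plant 2 and 24 without plant 3, 55 with the plant as a block and 67 without the 4 doubted libraries. In readings, all 3 WS plants at 30 min lay above all 3 at 60 min for 95 members, against 15.5% of all genes. The mesophyll sum was 47960 to 53689 RPKM in WS at 30 min and 27870 to 41529 RPKM at 60 min, and the guard cell sum was 14.6 to 23.5 and 25.6 to 29 RPKM. Neither pair of ranges overlapped, and their part in this fall was not tested.

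AT5G22690, a TIR-NBS-LRR receptor gene, read 14.0, 5.45 and 6.67 RPKM in WS at 30 min and 1.07, 0.81 and 0.80 RPKM at 60 min. The groups did not overlap, and the fall was 2.26 on the log2 scale (95% interval -2.84 to -1.68, adjusted p = 4.7e-05 by limma), past the threshold in every alternative. AT5G41100, a hydroxyproline-rich protein, read 19.4, 8.22 and 7.67 RPKM and then 2.48, 2.15 and 2.75 RPKM, a difference of -1.77 (adjusted p = 0.0012 by limma). PTI1-4 read 168, 66.9 and 68.9 RPKM and then 38.7, 23.7 and 23.0 RPKM, a difference of -1.70 (adjusted p = 0.0019 by limma). All 3 genes were higher at 30 min in every plant, plant 1 most of all. AT2G24600, an ankyrin repeat protein, read 76.0, 11.2 and 9.48 RPKM at 30 min and 0.85, 0.93 and 2.49 RPKM at 60 min, a difference of -3.21 (adjusted p = 0.0023 by limma). Without WS plant 2 the adjusted p was over the threshold for the last 3 genes, and their ranges over the alternatives were 0.00035 to 0.057, 0.00032 to 0.067 and 0.00045 to 0.074. AT2G24600 also lost its call without WS plant 1, and PTI1-4 and AT2G24600 lost theirs when only the groups compared entered the fit.

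In Col-0 no member passed the test from 30 to 60 min, and nor did any other gene (0% of those tested). The median difference of the members was -0.78 against 0 for all genes, 153 of 157 were negative, and 43 had an unadjusted p under 0.05 by limma, all of them lower, against 5.90% of all genes tested. The count was 1 without the 4 doubted libraries. In readings, 41 members had all 3 plants at 30 min above all 3 at 60 min, against 5.61% of all genes. The difference between the ecotypes in this step was tested by an interaction term added after the steps had been seen. It passed for none of the members and for 0.0217% of all genes, and 14 members had an unadjusted p under 0.05, where 2.89% of all genes had. The median of the members was -0.55 against 0.01 for all genes. The step was therefore past the threshold in WS only, and a difference between the ecotypes was not shown for any member.

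From 60 to 240 min, 29 members fell in Col-0 and none rose, where 11.6% of all genes fell, so that the share of members, 18.5%, was not far above that of all genes. Of all genes, 3103 passed in either direction, and 1603 of those fell while the rest rose. The median of the members was -0.59 and that of all genes -0.01. The count of members was 41 without plant 1, 5 without plant 2, 7 without plant 3 and 46 without the 4 doubted libraries. In WS 35 fell and 2 rose, where 17.5% of all genes fell and 16.3% rose. The median of the members was -0.50, and the count in either direction, 37 (33.8% of all genes), was 34, 18 and 24 without plants 1, 2 and 3. Of the members that fell, 20 did so in both ecotypes, which is 69% of those in Col-0 and 57.1% of those in WS. Among all genes tested the corresponding shares were 77.5% and 51.4%, so the overlap was near that of all genes. They include PTI1-4, SRC2, TCH2, SPX1, RRTF1, WRKY15, CPK32, NSL1, CAD1 (AT1G29690) and AtIPCS1. The 2 members that rose in WS were HSF A4A, a heat shock factor, and WAKL6, which had both fallen from 30 to 60 min, and both rises were lost without WS plant 2 and without WS plant 3.

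PTI1-4 read 19.6, 34.96 and 48.5 RPKM in Col-0 at 60 min and 7.36, 8.51 and 10.1 RPKM at 240 min, a difference of -1.79 (adjusted p = 9.0e-05 by limma). In WS it differed by -1.54 (adjusted p = 0.00021 by limma), and neither pair of groups overlapped. TCH2, named for its response to touch, read 17.0, 35.9 and 34.8 RPKM in Col-0 at 60 min and 6.74, 7.62 and 7.85 RPKM at 240 min, a difference of -1.78 (adjusted p = 0.00040 by limma). Those of WS read 21.2, 24.6 and 19.4 RPKM and then 7.55, 3.2 and 4.03 RPKM, a difference of -2.0 (adjusted p = 4.3e-05 by limma). SRC2 and SPX1 fell in Col-0 by 2.43 and 3.64 on the log2 scale (adjusted p = 0.00029 and 0.00056 by limma). SRC2 was over the threshold when only the groups compared entered the fit, with an adjusted p of 0.057 in a range from 1.1e-05. AT5G19240 fell in WS by 2.28 (adjusted p = 0.00015 by limma). XT1, a xylosyltransferase of xyloglucan synthesis, read 22.2, 15.7 and 32.8 RPKM in WS at 60 min and 3.91, 2.63 and 2.92 RPKM at 240 min, a difference of -2.52 (adjusted p = 0.00022 by limma). The calls of PTI1-4, TCH2, SPX1, AT5G19240 and XT1 named here held in every alternative run.

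**Figure D5:**
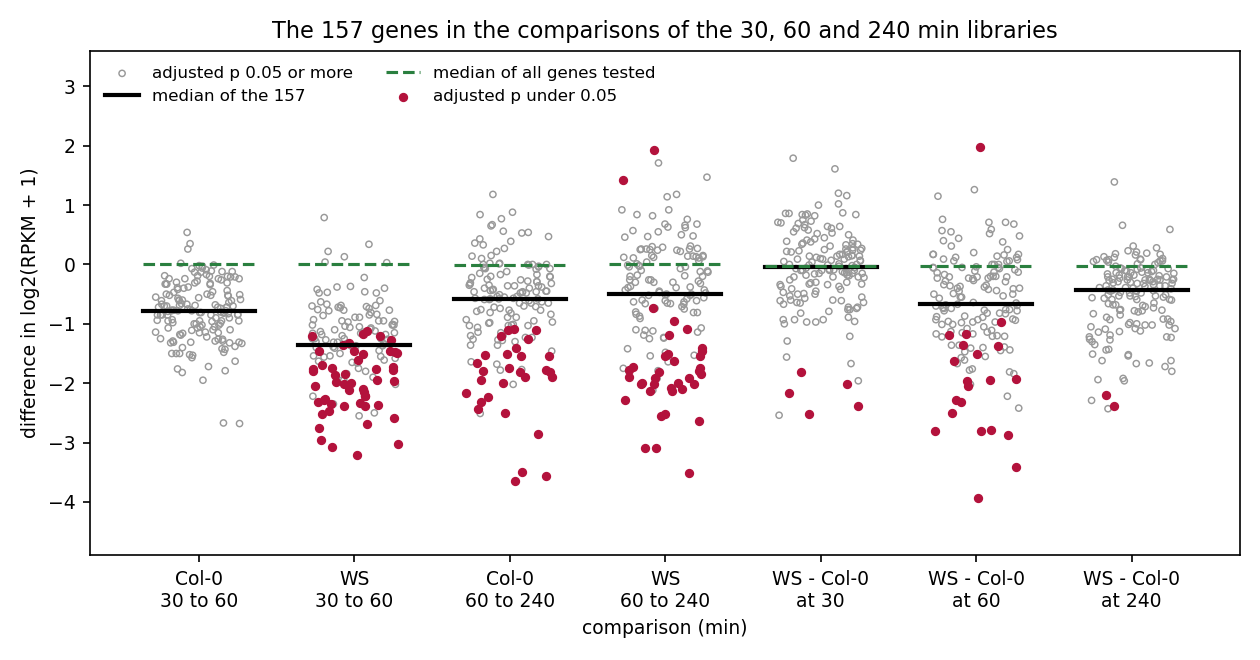
Difference in log2(RPKM + 1) (y axis) of each of the 157 members in the 7 comparisons tested (x axis), with filled points for an adjusted p under 0.05, a solid bar at the median of the members and a dashed line at the median of all 13817 genes. The medians of the members are -1.35 from 30 to 60 min in WS, -0.67 for WS minus Col-0 at 60 min and -0.05 for WS minus Col-0 at 30 min, and XT1 is the only filled point above 0 at 60 min.

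The ecotypes were compared at each of the same 3 times. All reads were aligned to the TAIR10 reference, which is a Col-0 genome, so that a lower level in WS and a poorer match of WS reads to the reference cannot be told apart. At 30 min the members were alike in the median, -0.05 for WS minus Col-0, and 5 were lower in WS and none higher, where 5.46% of all genes were lower. Of all genes, 1147 differed in either direction at 30 min, and 754 of those were lower in WS. At 60 min the median was -0.67 against -0.02 for all genes, and 20 members were lower in WS, where 6.31% of all genes were, and 1 was higher, where 4.57% were. This count was 37 without Col-0 plant 1 and 10 without plant 2, 9 without WS plant 2 and 9 without plant 3, in either direction (10.9% of all genes), and 43 without the 4 doubted libraries. At 240 min the median was -0.43 against -0.03, with 2 members lower in WS, where 2.64% of all genes were, and none higher. Of all genes, 652 differed in either direction at 240 min, and 365 of those were lower in WS. By role, the counts at 60 min were 4 of 17 calcium genes, 4 of 14 receptors, kinases and G proteins, 3 of 25 transcription and RNA-binding factors and 2 of 18 immune receptors and partners.

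AT2G24600 read 21.5, 44.7 and 41.5 RPKM in Col-0 at 60 min and 0.85, 0.93 and 2.49 RPKM in WS, a difference of -3.93 (95% interval -5.10 to -2.75, adjusted p = 1.6e-05 by limma). At 0 min it read 2.40 to 5.82 RPKM in Col-0 and 0.50 to 0.67 RPKM in WS, so that the ecotypes were apart in readings before the light increase too. ATAF1, a NAC factor of abscisic acid and stress responses, read 12.7, 33.3 and 40.9 RPKM in Col-0 at 60 min and 5.18, 4.12 and 4.45 RPKM in WS, a difference of -2.28 (adjusted p = 0.0016 by limma). SOBIR1 read 40.4, 161 and 43.7 RPKM and 7.26, 9.46 and 7.90 RPKM, a difference of -2.87 (adjusted p = 0.0025 by limma). AT5G52760, annotated as a copper transport protein, read 5.45, 79.3 and 7.16 RPKM and 0.16, 0.65 and 0.82 RPKM, a difference of -3.41 (adjusted p = 0.0022 by limma), which lost its call when only the groups compared entered the fit (0.097, in a range from 0.00063). XT1 was the 1 member higher in WS, by 1.98 (adjusted p = 0.0067 by limma), from 2.52, 5.92 and 7.70 RPKM in Col-0 and 22.2, 15.7 and 32.8 RPKM in WS, and this call was lost without Col-0 plant 1 and without WS plant 3.

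The 5 members lower in WS at 30 min were also lower at 60 min. They were AT1G66500, related to a cleavage factor of pre-mRNA, AT1G66090, NAC090, AT5G52760 and AT2G24600. The 2 comparisons share no library, but they share the plants and the reference genome, so that 1 is not an independent repeat of the other. The overlap among all genes is not given here. AT1G66500 read 18.8, 8.86 and 22.7 RPKM in Col-0 at 30 min and 7.15, 1.37 and 1.69 RPKM in WS, a difference of -2.16 (adjusted p = 0.0018 by limma). AT1G66090 read 17.0, 19.3 and 40.7 RPKM in Col-0 and 13.2, 1.49 and 1.3 RPKM in WS, a difference of -2.52 (adjusted p = 0.016 by limma). NAC090 differed by -2.01 (adjusted p = 0.020 by limma) and AT5G52760 by -2.39 (adjusted p = 0.040 by limma), the latter lost in 9 of 15 alternatives. All 5 calls at 30 min were lost when only the groups compared entered the fit, that of AT1G66500 with an adjusted p of 0.090 in a range from 0.00014 by limma. Without Col-0 plant 3 the calls of AT1G66090, NAC090 and AT5G52760 at 30 min were lost, and so they were without WS plant 2 and without WS plant 3. Of these 5 genes, AT1G66500, AT1G66090, AT2G24600 and NAC090 have CGCGTT in the promoter of the reference and AT5G52760 does not, where 19.1% of all members have it. Other members lower in WS at 60 min do not have it either, among them ATAF1, SOBIR1, AT1G80610, NAC036, AT2G26190, CRK41, XBAT34 and AT4G18205. The share with these letters among all 20 members lower in WS at 60 min was not counted. A link of these letters to the level in WS was not tested.

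AT5G19240 and AT1G66090 were the members that differed at 240 min. AT5G19240 read 112, 138 and 146 RPKM in Col-0 and 28.7, 22.5 and 33.1 RPKM in WS, a difference of -2.20 (adjusted p = 0.00089 by limma, 0.00014 to 0.017 over the alternatives). It was also lower in WS in every plant at 0 min, at 59.1 to 134 RPKM in Col-0 and 23.0 to 39.3 RPKM in WS. AT1G66090 differed by -2.39 (adjusted p = 0.035 by limma), a call lost without Col-0 plant 1 or 3 and without any of the WS plants. In WS the readings were 0, 0.19 and 0.39 RPKM at 0 min.

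Other genes of the same pathways were taken from lists. Of all genes above the floor, 2.38% had a 15 min ratio of at least 3 in both ecotypes. Of 29 ERF and DREB factors above the floor, 15 had a 15 min ratio of at least 3 in both ecotypes, of which 10 are members and 5, ERF1A, ERF2, ERF4, ERF11 and ERF13, were still raised at 120 min. Of 23 WRKY factors 9 reached that ratio, and only WRKY15 and WRKY22 are members. WRKY40, a repressor of immune genes, had a 120 min ratio of 25.9 in Col-0 and 8.31 in WS. Its means were 36.5 and 8.42 RPKM, with standard deviations of 40.1 and 8.99. WRKY33, an activator of camalexin synthesis, had 120 min ratios of 2.34 and 3.95. Its means were 15.9 and 15.5 RPKM, with standard deviations of 17 and 14.8, so the plants were far apart for both genes. Of 10 zinc finger factors 6 reached it and 2 are members, SZF1 and ZF2. Of 22 touch genes and calcium sensors 11 reached it and 7 are members, while TCH3, TCH4, CML38 and CML40 were still raised. Of 15 MYB and NAC factors 8 reached it and 3 are members, of 16 genes of MAP kinase cascades 3 did and MPK3 is the member, and of 10 ubiquitin ligases of early responses 6 did and 3 are members.

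No jasmonate gene of the lists was a member. Of 12 JAZ repressors 6 and of 15 genes of jasmonate synthesis 7 had a 15 min ratio of at least 3 in both ecotypes, and all 13 were still raised at 120 min. AOS, an enzyme of jasmonate synthesis, had a 15 min ratio of 1.87 for Col-0 and 2.41 for WS, and a 120 min ratio of 19.7 and 19.6. None of 12 genes of light signalling and photoprotection and none of 10 of the core clock reached that ratio, lists too short to set apart from 2.38%. Of 11 heat shock genes 1 did, the member HSF A4A. From 60 to 240 min, 8 of the 29 ERF and DREB factors fell in Col-0 and 10 in WS. Of 12 JAZ genes 10 and 11 fell, where 11.6% and 17.5% of all genes did. Other lists fell too, with 9 and 11 of 12 genes of light signalling and photoprotection and 6 and 10 of 11 heat shock genes. Of 23 WRKY factors 3 and 6 fell. The falls are thus not particular to the ERF and JAZ lists.

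The borders of the rule cut through a continuous range. In Col-0 at 15 min, AGP20 (3.03) and AT4G11300 (3.04) lay just inside and NHL2 (2.97) and AT1G72940 (2.96) just outside. In WS at 15 min, ZAR1 (3.01) and AT5G52760 (3.07) were inside and AT3G09870 (2.99) and DGK1 (2.97) outside. At 120 min, AT1G56060 (2.00, rounded up) and AT1G03220 (1.99) were inside in Col-0 and AT5G63130 (2.14) and SRO5 (2.22) outside, and in WS HIR2 (1.94) and ERD15 (1.91) were inside and AT4G33920 (2.05) and LGT8 (2.08) outside. When each of the 6 plants was left out in turn, the rule found between 113 and 164 genes, and 75 of the 157 members were found every time. Of the 157, 68 passed in none of the 7 comparisons tested and 89 in 1 or more. The same share over all genes was not counted, and 33.8% of all genes passed in the step from 60 to 240 min in WS alone. The 89 are therefore not read as a feature of the members.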

How the data were processed

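Leaf RNA was sequenced as single-end 50-base reads from a stranded mRNA kit. Per the labels and methods, the authors deposited 1 column of RPKM per library, from reads trimmed by Trimmomatic 0.32, placed on the TAIR10 genome by STAR 2.3.0e and assigned to genes by featureCounts. The labels' time field for the 30 min libraries reads 20, and the titles, which give 30 min, were used. Plants are numbered by the replicate number, and the methods state 3 plants per ecotype sampled at each time. Each library's depth was recovered from the steps in its low RPKM values, of which at least 99.77% lay within 0.1 of a whole read in each library.

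For the 13817 genes with a reading above 7 RPKM, limma 3.58.1 (R 4.3.3, with a mean-variance trend in eBayes) was fitted to log2(RPKM + 1). The 12 ecotype and time groups left 24 residual degrees of freedom. Tests were 2-sided, and the adjusted p (Benjamini-Hochberg, over all genes of a comparison) was called under 0.05. The main fit treated libraries as independent, and the plant entered as a block in an alternative. Deviations from group means correlated with a median of 0.129 between libraries of the same plant (90 pairs) and -0.0531 between plants (180 pairs). Taking deviations from the mean of each group ties these values together, so the value between plants is not a separate baseline. Promoters, exons and neighbours were read from RefSeq TAIR10.1, which held 37051 of the 37336 genes.

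The members, their roles, the gene lists and the tests were chosen with earlier results of these data known. Values are named for up to 3 members per role with the highest 15 min mean, up to 4 per comparison with the smallest adjusted p, 3 at each end of the ratio of 30 min to 15 min, 2 on each side of each border of the rule, and up to 2 other genes of each list with the highest 15 min mean. The genes whose promoters are printed, and MPK3 at 120 min, were picked after their values were seen, as were the 4 libraries left out together (Col-0 60 min and 120 min plant 1, WS 120 min plant 3 and WS 0 min plant 1).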

Additional observations from a re-analysis of the deposited data

Results flagged for a closer look

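CRK10, the cysteine-rich receptor kinase, read lower at 240 than at 60 min in Col-0 and higher in WS. In Col-0 it read 45.9, 48.6 and 40.3 RPKM at 60 min and 30.7, 33.4 and 17.98 RPKM at 240 min, and in WS 11.7, 8.36 and 10.6 RPKM and then 18.6, 28.1 and 27.2 RPKM. The mean change was -0.74 in Col-0 and 1.18 in WS on the log2(RPKM + 1) scale, a gap of 1.92. Every Col-0 plant read lower and every WS plant higher. Neither step passed (adjusted p = 0.46 and 0.17 by limma), and the difference between them was not tested.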

How the results depend on the processing

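The rule found 154 genes with 0.1 RPKM added and 78 with 5 RPKM added in place of 1, 161 in TPM, 132 by medians of 3 libraries and 113 to 164 without 1 plant. When only the groups compared entered the fit, the members called were 19 from 30 to 60 min in WS, 10 from 60 to 240 min in Col-0 and 64 in WS, and 0, 12 and 14 between the ecotypes at 30, 60 and 240 min. Without the 4 doubted libraries the counts were 1 from 30 to 60 min in Col-0, 46 from 60 to 240 min in Col-0, and 43 and 7 between the ecotypes at 60 and 240 min. Between the ecotypes at 30 min, a pseudocount of 0.1, no filter, TPM and the replicate block gave 3 each in place of 5, and at 240 min a pseudocount of 0.1 gave 9 and a filter of 1 RPKM in 3 libraries 4 in place of 2. Without 1 plant, the counts ran from 1 to 24 for the step from 30 to 60 min in WS, 5 to 41 and 18 to 34 for the step from 60 to 240 min in Col-0 and WS, and 1 to 7, 9 to 37 and 1 to 5 between the ecotypes at 30, 60 and 240 min. Fewer libraries enter such fits, and the cause of these shifts was not tested. The plant as a replicate block gave 55, 37, 45, 21 and 2 calls in the other 5 comparisons with calls, against 51, 29, 37, 21 and 2. Of 294 values of named genes under the alternatives, 263 kept their direction and side of the threshold, 31 lost the call and 0 reversed. With 3 plants a group and no growth-light series, the data limit what single genes can show.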
